A study of Mus musculus with 12 samples.

Results

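Tail tip fibroblasts of newborn mice that carried 1 disrupted copy of Hotair were compared with wild-type fibroblasts of the same origin. Fibroblasts are the cells of connective tissue that make its matrix. Each genotype had 2 RNA libraries, and the compared genes were the autosomal genes at 1 RPKM or more (reads scaled to gene length and to the mapped reads of the library) in at least 2 of these 4 libraries. That rule kept 10063 of the 24132 gene rows of the series, and it used no difference between the genotypes. Of these genes, 9504 reached 1 RPKM in all 4 libraries, 234 in both heterozygous libraries alone and 65 in both wild-type libraries alone. At the threshold, the second highest library stood at 1.0003 RPKM for the lowest gene kept and at 0.9997 for the highest gene left out. The series holds 12 samples, 6 of them RNA libraries of wild-type, heterozygous and Hotair knockout cells, and the strain of every sample had been backcrossed to C57BL6 with over 97% similarity. The labels give neither the design of the Hotair allele nor the sex and number of pups behind a library. Knockout values are given only as levels beside some genes, since a comparison of knockout with wild type would share the wild-type libraries. The 6 chromatin immunoprecipitation samples are not analysed here.

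Hotair encodes no protein; its RNA is made between Hoxc11 and Hoxc12, antisense to both. It is known for its proposed work as a scaffold that binds Polycomb repressive complex 2, which methylates histone H3 at lysine 27, and the LSD1-CoREST complex, which removes methyl groups from lysine 4. In skin, Hotair and the posterior Hox genes mark fibroblasts of distal and posterior body sites.

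Hotair was close to the limit of detection in both genotypes. The wild-type libraries held 0.247 and 0.183 RPKM, the heterozygous libraries 0.213 and 0.172, and both knockout libraries 0. The wild-type and heterozygous values overlapped, so loss of 1 copy left no difference in Hotair RNA that was detectable at this depth. Hotair lay under the 1 RPKM threshold, and in a limma fit of all 18112 genes above 0 its log2 difference was -0.03 ± 0.03 (SE; adjusted p = 0.583, 2 libraries per genotype).

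The libraries of the 2 genotypes also stood apart at the sex chromosomes. Xist, the RNA that coats the inactive X chromosome of female cells, was at 0.0414 and 0.0479 RPKM in wild type and at 4.65 and 4.46 in heterozygous cells. The Y-linked helicase gene Ddx3y went the other way, from 1.68 and 1.80 RPKM in wild type to 0.133 and 0.216 in heterozygous cells. The Y-linked translation factor gene Eif2s3y stood at 1.85 and 1.99 against 0.0676 and 0.0541, and the demethylase gene Kdm5d at 1.25 and 1.17 against 0.0109 and 0.00584. Neither Xist nor these Y-linked genes overlapped between the genotypes. Genotype and the sex makeup of the cells therefore cannot be told apart in any comparison of these libraries, autosomal genes included. Of 299 X-linked genes past the filter, 126 (42.1%) were called higher and 40 (13.4%) lower, beside the autosomal shares of 35.2% and 17.6%.

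**Figure D1:**
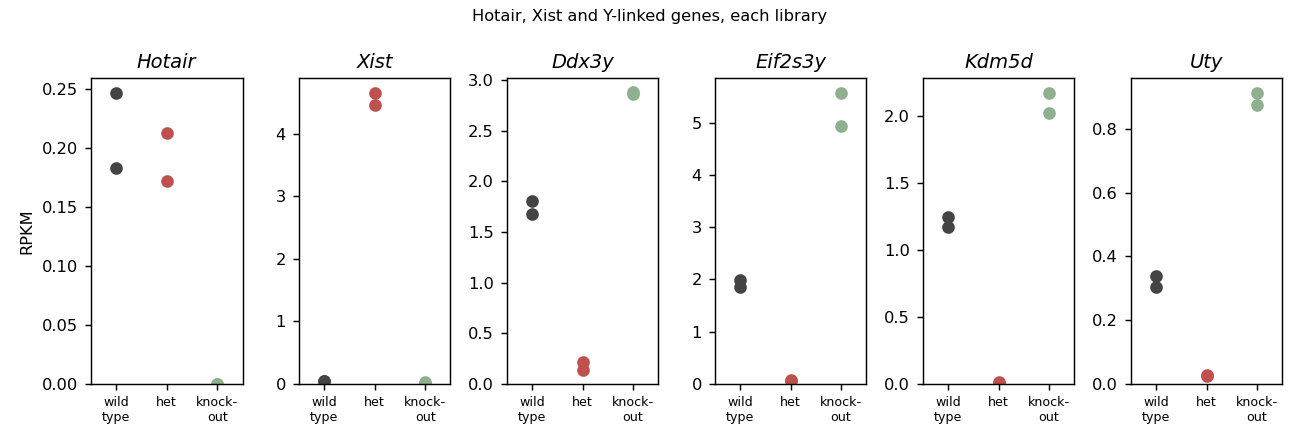
Level in RPKM (vertical axis, from 0) of Hotair, Xist and 4 Y-linked genes, 1 point per library, for 2 wild-type, 2 heterozygous (het) and 2 knockout libraries. Hotair overlaps between wild type and heterozygous, while Xist is at 4.65 and 4.46 RPKM in the heterozygous libraries only and the Y-linked genes are near 0 there.

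Across the autosomes, small differences were the rule. The median absolute difference between the genotype means was 0.144 on the log2(RPKM + 1) scale, against 0.050 between the 2 wild-type libraries and 0.048 between the 2 heterozygous ones. limma, a linear model with a spread shared across genes, called 3542 genes higher in heterozygous cells (35.2% of the genes tested) and 1776 lower (17.6%) at an adjusted p under 0.05. Of these calls, 2930 (55.1%) were under 1.2-fold. The labels do not say that the 2 libraries of a genotype came from separate animals or cultures, so the p-values reflect the spread of these libraries alone, and that spread may be technical. Higher genes made up 66.6% of the calls, but 51.0% after quantile normalization and 46.7% after scaling to the library median. Of all autosomal genes, quantile normalization left 22.7% called higher and 21.9% lower, and median scaling 23.5% and 26.9%.

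Larger differences were a small share, with fold sizes taken on the RPKM + 1 scale. Between genotypes, 258 genes were at least 1.5-fold higher without overlap of the libraries (2.56%) and 176 at least 1.5-fold lower (1.75%), while the 2 wild-type libraries differed that much in 25 genes and the 2 heterozygous ones in 29. At least 2-fold apart without overlap were 74 genes higher (0.735%) and 41 lower (0.407%). Of the 41, 8 were rows for histone H4, which may share reads. Low genes leaned upward: the median log2 difference was 0.14 for genes under 3 RPKM and -0.06 for genes over 100 RPKM, with 0.06 over all autosomal genes. Among the 7027 autosomal genes under the filter, both heterozygous libraries were above both wild-type libraries in 29.6% and below them in 14.6%. By chromosome, the share of genes at least 1.5-fold apart ranged from 1.86% on chromosome 16 to 8.92% on chromosome 12. Chromosome 12 holds the 8 Serpina3 rows described below, which may share reads.

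**Figure D2:**
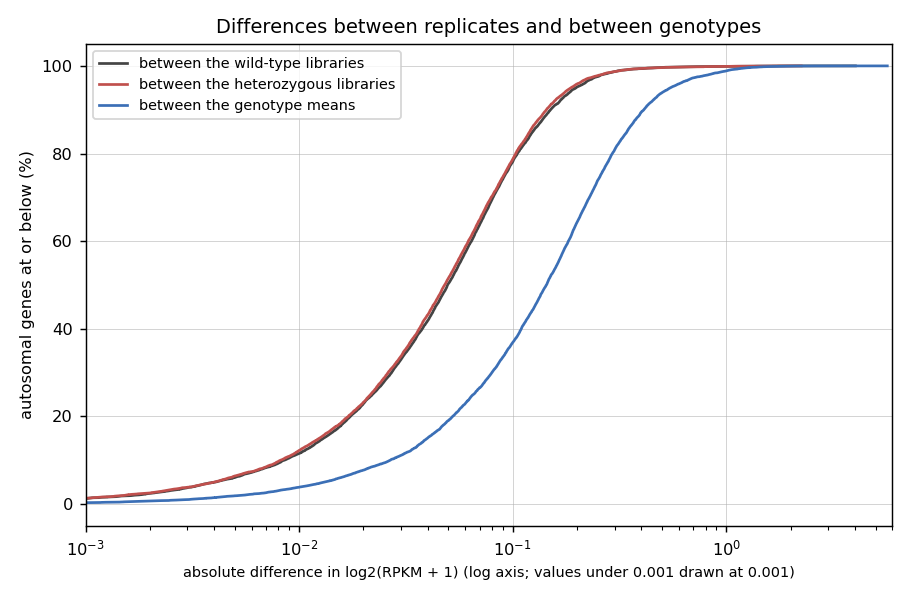
Cumulative share of 10063 autosomal genes (vertical axis, percent) at or below an absolute difference in log2(RPKM + 1) (horizontal, log axis), between the 2 wild-type libraries, between the 2 heterozygous libraries and between the genotype means. The replicate curves nearly coincide (medians 0.050 and 0.048) and the genotype curve lies to their right (median 0.144).

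**Figure D3:**
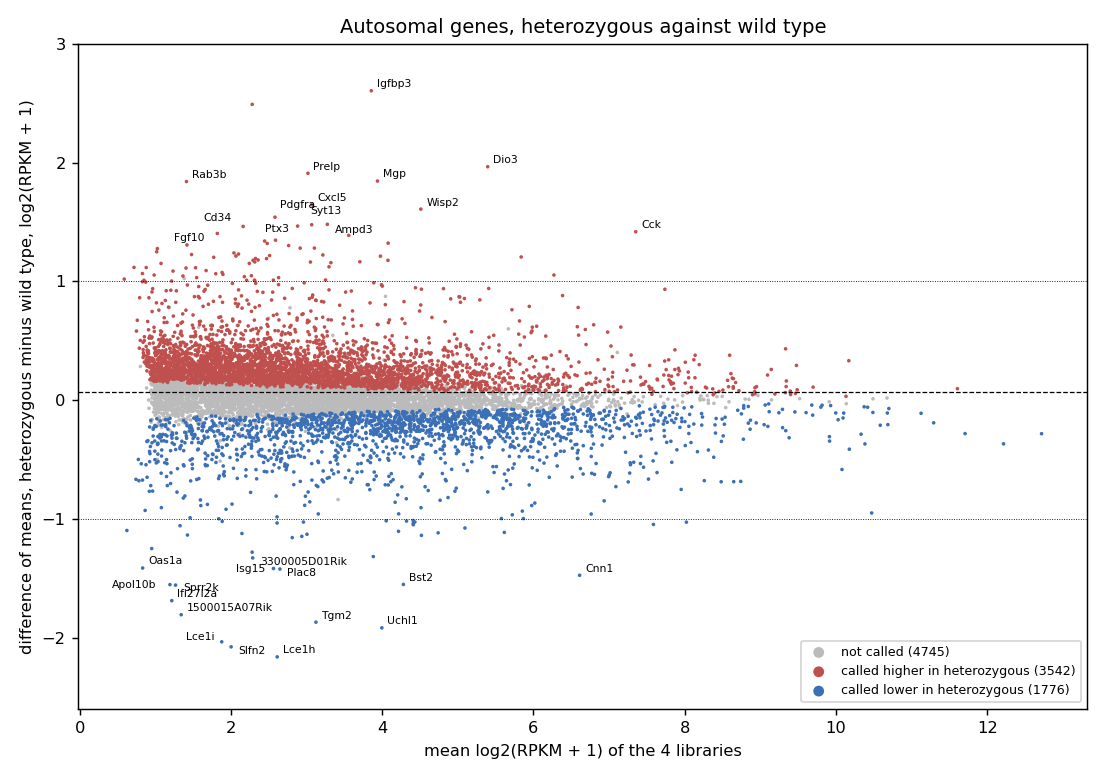
Difference of genotype means in log2(RPKM + 1) (vertical axis, heterozygous minus wild type) against the mean log2(RPKM + 1) of the 4 libraries, 1 point per autosomal gene, coloured by the limma call, with 29 of the 30 largest changes labelled. The dashed line marks the median of all genes (0.06), the dotted lines 1 and -1, and 3000002C10Rik, at 5.68, lies above the axis.

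The 15 largest rises and 15 largest falls were chosen for called differences without overlap, so the separation of their libraries is fixed by the choice. Among the genes named here and in the lists, 3000002C10Rik, Rab3b, Ogn, Col14a1, Col10a1, Bmp4, Hoxc6, Hoxd8, Barx1, Plagl1, Car9 and Aldh3a1 passed the filter only through the heterozygous libraries. In the same way Sprr2k, Apol10b, 1500015A07Rik, Oas1a, Ifi27l2a, Ifit1 and Mmp9 passed only through the wild-type libraries. These genes had to differ in that direction to be kept.

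The rises included genes of hormone and growth factor signalling. Igfbp3, which carries insulin-like growth factors in the extracellular space, stood at 4.81 and 4.93 RPKM in wild type and at 34.7 and 34.7 in heterozygous cells. Its log2 difference was 2.61 ± 0.03 (SE; limma adjusted p = 1.5e-08). The heterozygous libraries were close to the knockout level of 36.8 and 36.8. Dio3, an imprinted deiodinase that inactivates thyroid hormone, went from 20.4 and 20.2 RPKM to 81.5 and 82.8 (1.97 ± 0.03, limma adjusted p = 2.3e-08), with 82.2 and 84.7 in the knockout libraries. Cck, the gene of the peptide hormone cholecystokinin, was abundant already in wild type at 101 and 96.9 RPKM and reached 264 and 268 (1.42 ± 0.02). Fgf10, a mesenchymal growth factor of limb and lung buds, rose from 1.17 and 1.17 RPKM to 4.62 and 4.87 (1.40 ± 0.05). The replicates of each genotype lay close together in these 4 genes.

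Matrix and surface genes made up a second set of the largest rises. Prelp, a leucine-rich proteoglycan that anchors basement membranes, rose from 2.89 and 3.48 RPKM to 14.2 and 15.2 (1.91 ± 0.07, limma adjusted p = 1.2e-06). Mgp, the matrix Gla protein that inhibits calcification, rose from 6.71 and 7.48 to 26.3 and 29.9 (1.85 ± 0.07), and the knockout libraries stood higher still at 85.7 and 82.2 RPKM. Wisp2, a matricellular protein of the CCN family, rose from 12.3 and 11.8 to 38.6 and 39.0 (1.61 ± 0.03). The spread within a genotype was small beside the difference in these matrix genes. Pdgfra, the receptor for platelet-derived growth factor that marks fibroblast progenitors, rose from 2.54 and 2.49 RPKM to 9.19 and 9.24 (1.54 ± 0.04). Cd34, a sialomucin of progenitor and stromal cells, rose from 1.83 and 1.56 to 6.62 and 6.24 (1.46 ± 0.06). In these bulk libraries, fewer cells of a type and less RNA per cell cannot be told apart.

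Inflammatory and vesicle genes completed the list of rises. Cxcl5, a chemokine that attracts neutrophils, rose from 3.94 and 3.55 RPKM to 13.9 and 13.8 (1.65 ± 0.05), and Ptx3, a pentraxin of innate defence, from 3.49 and 3.38 to 11.8 and 10.8 (1.47 ± 0.06). Rab3b, a small GTPase of secretory vesicles, was nearly silent in wild type at 0.408 and 0.402 RPKM and stood at 4.20 and 3.87 in heterozygous cells (1.84 ± 0.05). Syt13, of the synaptotagmin family, rose from 4.14 and 3.91 to 12.9 and 13.1 (1.48 ± 0.04), above the knockout libraries at 1.66 and 1.67. Ampd3, an AMP deaminase, rose from 5.13 and 4.47 RPKM to 14.7 and 15.7 (1.48 ± 0.06). The row 3000002C10Rik had the largest difference (5.68 ± 0.98) but also the widest spread, with 0.132 and 0.167 RPKM in wild type and 102 and 32.4 in heterozygous cells. It resembles Gapdh and may share reads with other copies, so its value is uncertain.

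The largest falls were led by genes of the cornified envelope, the protein shell of terminally differentiated keratinocytes. Lce1h, a late cornified envelope protein, stood at 12.3 and 11.5 RPKM in wild type and at 2.16 and 1.64 in heterozygous cells (log2 difference -2.16 ± 0.09, limma adjusted p = 2.1e-06). Lce1i fell from 6.69 and 6.20 to 1.005 and 0.644 RPKM (-2.04 ± 0.11), and Sprr2k, a small proline-rich protein, from 2.77 and 3.53 to 0.462 and 0.346 (-1.56 ± 0.11). All 6 cornified envelope genes that passed the filter were lower, but 3 of them passed only through the wild-type libraries and 27 more of the list were under the filter. Of the 22 of those with reads, 18 had both heterozygous libraries below both wild-type libraries, against 14.6% of all autosomal genes under the filter. Ivl, the envelope protein involucrin, was one of them, at 0.863 and 1.03 RPKM in wild type and 0.0156 and 0.0167 in heterozygous cells. Members of the Lce1 group are near copies that may share reads.

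Markers of living keratinocytes did not follow that pattern as a group. Krt5 stood at 0.0303 and 0.0163 RPKM in wild type and at 0.240 and 0.0584 in heterozygous cells, and Krt14 at 0.0372 and 0.0854 against 0.0361 and 0.0759. Both keratins of basal keratinocytes were thus near 0 in every library. Of the 14 markers under the filter with reads, 6 had both heterozygous libraries above both wild-type ones and 2 below. The shares of all autosomal genes under the filter were 29.6% and 14.6%. The 2 below were Dsp, at 0.354 and 0.398 RPKM in wild type against 0.240 and 0.233, and Krt15, at 0.0391 and 0.0673 against 0.00753 and 0. The 16 keratinocyte markers summed to 13.2 and 13.3 RPKM in wild type and to 13.8 and 13.9 in heterozygous cells, most of it Itga6, an integrin shared with other cells, at 11.0, 10.9, 10.9 and 11.1. Itga6 was the only marker of that list past the filter, and limma did not call it (log2 difference 0.01 ± 0.03, adjusted p = 0.77).

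The remaining large falls included signalling and cytoskeletal genes. Slfn2, a Schlafen gene that holds lymphoid cells in quiescence, fell from 6.71 and 7.79 RPKM to 1.03 and 0.871 (-2.08 ± 0.08, limma adjusted p = 1.5e-06), close to the knockout level of 0.883 and 0.998. Uchl1, a ubiquitin hydrolase best known from neurons, fell from 29.8 and 30.2 to 7.03 and 7.37 RPKM (-1.92 ± 0.04). Tgm2, the tissue transglutaminase that crosslinks matrix proteins, fell from 16.0 and 15.4 to 3.32 and 3.81 (-1.87 ± 0.06). The wild-type libraries were far above the heterozygous ones in all 3 genes, with little spread within a genotype. Plac8 fell from 8.91 and 9.62 RPKM to 2.57 and 3.10 (-1.42 ± 0.10), Apol10b, of the apolipoprotein L family, from 2.92 and 2.92 to 0.418 and 0.255 (-1.55 ± 0.07), and 2 uncharacterised rows, 1500015A07Rik and 3300005D01Rik, by 1.81 and by 1.33 on the log2 scale. For Apol10b the knockout libraries stood at 3.29 and 3.42 RPKM, at or above the wild-type values.

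**Figure D4:**
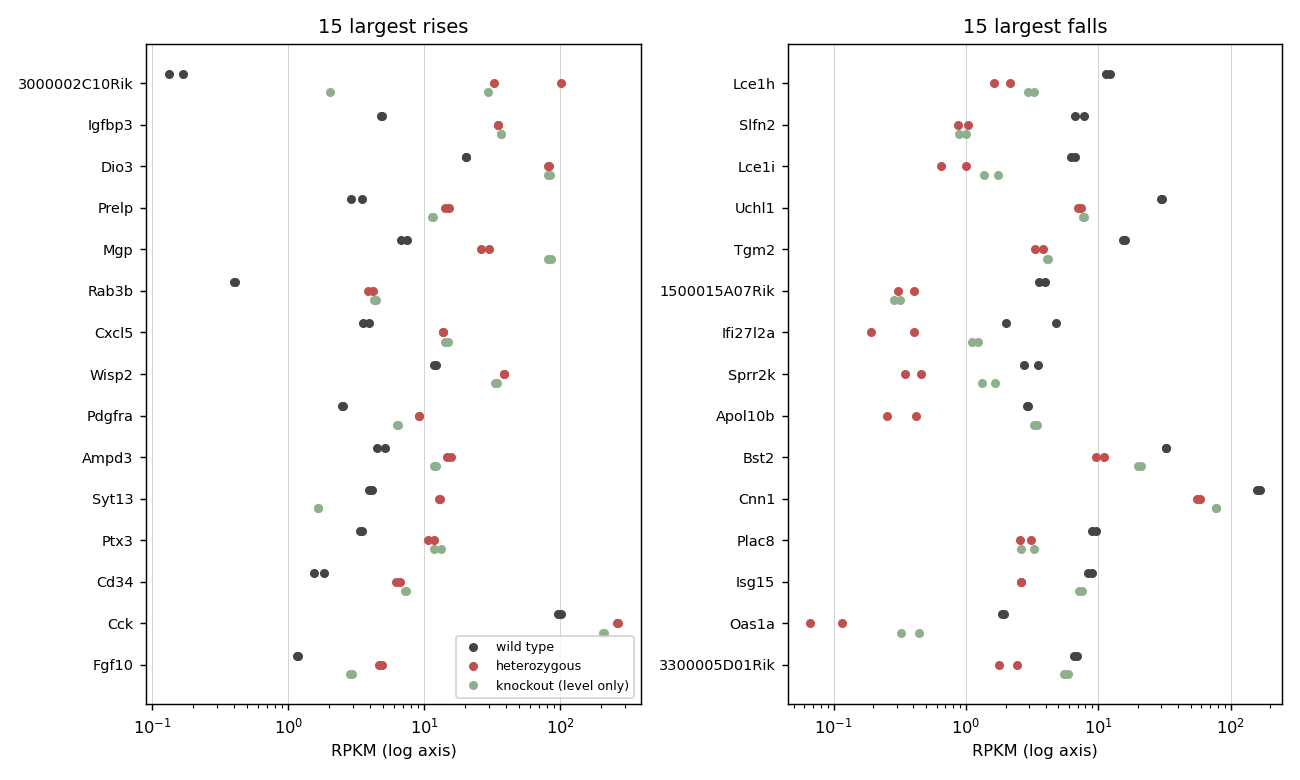
Level in RPKM (horizontal, log axis) of the 15 genes with the largest rises and the 15 with the largest falls, 1 point per library, for wild type, heterozygous and knockout. Wild-type and heterozygous points do not overlap for any of the 30 genes by the rule that chose them; the knockout points, such as those of Syt13 and Apol10b, can lie on either side.

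Genes induced by interferon were lower as a group. Type I interferon is known to act through transcription factors that include Stat2 and Irf9, which bind a sequence called the interferon-stimulated response element and turn on antiviral genes. Of 35 such genes measured, 23 were called lower and 3 higher, against 17.6% and 35.2% of all autosomal genes, with a median log2 difference of -0.44 against 0.06. At least 1.5-fold lower without overlap were 12 of the 35, against 1.75% of all autosomal genes. Of these 35 genes, 7 passed the filter only through the wild-type libraries. Among the 20 listed genes under the filter, 15 had both heterozygous libraries below both wild-type ones, against 14.6% of all autosomal genes under the filter.

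Several effectors were among the largest falls. Bst2, tetherin, which holds budding viruses at the cell surface, stood at 32.3 and 32.3 RPKM in wild type and at 9.63 and 11.1 in heterozygous cells (log2 difference -1.55 ± 0.06, limma adjusted p = 1.7e-06). Isg15, a ubiquitin-like modifier, fell from 8.98 and 8.34 to 2.63 and 2.60 RPKM (-1.42 ± 0.05), and Oas1a, a sensor of double-stranded RNA, from 1.87 and 1.94 to 0.115 and 0.0668 (-1.41 ± 0.07). In the knockout libraries Isg15 stood at 7.51 and 7.17 RPKM and Bst2 at 20.1 and 21.0, between the heterozygous and the wild-type levels. Ifi27l2a, a mitochondrial interferon-induced protein, varied more, at 4.81 and 2.00 RPKM in wild type and 0.193 and 0.405 in heterozygous cells (-1.69 ± 0.26, limma adjusted p = 0.0015). Apol9a and Apol9b fell by 1.13 and by 1.16 on the log2 scale, and since they are near copies their reads may be shared.

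The factors that relay the interferon signal differed less. Irf7, the factor that amplifies the response, stood at 2.63 and 2.74 RPKM in wild type and at 1.39 and 1.25 in heterozygous cells, a fall of 0.67 on the log2 scale. Stat2 fell by 0.30 and Irf9 by 0.18, while Irf1 rose by 0.18. The receptor genes, Ifnar1 and Ifnar2, which are not on the list, were at 7.41 and 6.96 RPKM in wild type against 7.11 and 7.20, and at 6.42 and 6.49 against 6.81 and 6.68, and did not pass the test. Among genes of antigen presentation, B2m, the light chain of class I histocompatibility molecules, fell from 201 and 208 to 142 and 139 RPKM (-0.53 on the log2 scale). Xaf1 was the member with the largest rise (0.41).

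The response element could be looked for in the promoters of these genes. A window of 250 bases before the start site was available from RefSeq (GRCm38.p6) for 7431 of the autosomal genes measured. The core GAAANNGAA, searched on both strands with overlapping matches allowed, was in the window of 14 of the 29 measured interferon genes that had one, 13 of them among the 20 lower genes with a window, and in 7% of all 7431 windows. The list is of known interferon genes, so a match was likely from its choice, and a match is no evidence of binding. Stretches around the matches are shown for 6 of the lower genes, the effectors Bst2, Isg15, Oas1a, Apol9a and Apol9b and the RNA-binding Ifit1 (-0.47 on the log2 scale), as the strand of the gene reads 5′ to 3′, with the matched bases in capitals and in lower case up to 20 bases on either side. In these stretches GAAA repeats stand side by side, as GAAANNGAA or as its reverse complement, and Apol9a and Apol9b are identical.
Bst2, chr8:71537568-71537622, minus strand: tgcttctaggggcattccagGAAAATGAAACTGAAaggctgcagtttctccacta
Isg15, chr4:156200856-156200916, minus strand: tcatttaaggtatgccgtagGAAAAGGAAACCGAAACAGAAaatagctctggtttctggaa
Oas1a, chr5:120907526-120907565, minus strand: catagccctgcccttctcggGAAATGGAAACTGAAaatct
Ifit1, chr19:34640760-34640833, plus strand: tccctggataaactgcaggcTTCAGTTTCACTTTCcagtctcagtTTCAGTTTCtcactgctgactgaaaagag
Apol9a, chr15:77411104-77411158, minus strand: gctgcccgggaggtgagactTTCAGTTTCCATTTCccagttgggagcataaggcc
Apol9b, chr15:77729016-77729070, plus strand: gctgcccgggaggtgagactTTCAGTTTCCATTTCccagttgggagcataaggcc

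The contractile apparatus was lower in heterozygous cells. These genes, switched on in myofibroblasts and smooth muscle, are known targets of serum response factor and its actin-sensing cofactors. All 16 contractile genes measured were called lower by limma, against 17.6% of all autosomal genes. Of these 16 genes, 1 passed the filter only through the wild-type libraries. The median log2 difference was -0.45, and 5 were at least 1.5-fold lower without overlap. All 16 calls also held after quantile normalization and after median scaling. Acta2, smooth muscle actin, the classical myofibroblast marker, stood at 1976 and 1971 RPKM in wild type and at 1018 and 1023 in heterozygous cells (-0.95 ± 0.01, limma adjusted p = 2.1e-09). Cnn1, calponin, fell from 157 and 167 to 56.1 and 59.1 RPKM (-1.48 ± 0.03), and Actg2, enteric smooth muscle actin, from 373 and 367 to 180 and 182 (-1.03 ± 0.02). Each of the 3 genes lost about the same amount in both heterozygous libraries. Tagln, transgelin, fell from 1324 and 1324 to 876 and 890 RPKM, and the myosin light chain gene Myl9 from 538 and 545 to 337 and 336.

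Serum response factor itself was not on that list. Its gene Srf stood at 24.7 and 24.4 RPKM in wild type and at 23.3 and 25.0 in heterozygous cells, so its libraries overlapped. The wider list of 16 targets of YAP and serum response factor was mixed, with 7 lower and 3 higher and a median of 0.00. Tgfb2, a ligand of the transforming growth factor family, fell from 7.96 and 7.53 RPKM to 2.85 and 3.72 (-1.03 ± 0.09), and Ankrd1, a cardiac ankyrin repeat protein, from 24.1 and 22.6 to 12.6 and 13.4 (-0.80 ± 0.05). Acta1, skeletal actin, was the only skeletal muscle marker past the filter and fell by 0.61 on the log2 scale. Myod1, the master regulator of skeletal muscle, was at 0 in all 4 libraries.

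The binding site of serum response factor, the CArG box, was searched in the same promoter windows on both strands. It was found in 3 of the 13 contractile genes with a window (Cnn2, Myl9 and Vcl) and in 1.40% of all windows. A missing match says only that the strict sequence is not in the 250 bases searched. The stretches of the 3 genes with a match are shown in the same manner, the box in capitals.
Myl9, chr2:156775283-156775332, plus strand: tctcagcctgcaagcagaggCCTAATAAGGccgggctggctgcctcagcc
Cnn2, chr10:79988524-79988573, plus strand: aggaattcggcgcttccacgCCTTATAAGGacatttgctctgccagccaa
Vcl, chr14:20929151-20929200, plus strand: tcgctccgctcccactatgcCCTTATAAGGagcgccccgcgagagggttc

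Cholesterol synthesis and uptake genes were lower throughout. The pathway builds sterols from acetyl-CoA, and its enzymes are known to be switched on together by the transcription factor Srebf2 when sterols are scarce. All 21 genes measured were called lower, before and after both other scalings, with a median log2 difference of -0.37, and 6 were at least 1.5-fold lower. Fdps, which makes farnesyl diphosphate, stood at 62.1 and 61.4 RPKM in wild type and at 36.5 and 36.4 in heterozygous cells (-0.74 ± 0.03, limma adjusted p = 2.4e-06). Sc4mol, a sterol oxidase of the later steps, fell from 27.5 and 27.3 to 17.4 and 16.9 RPKM (-0.65 ± 0.04). Both heterozygous libraries were below both wild-type libraries in each gene. Srebf2 itself fell by 0.18, a call that was lost without wild-type library 2 or without heterozygous library 1. None of the 12 windows available for these genes held TCACNCCAC, a form of the sterol regulatory element present in 1.26% of all windows.

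Serine synthesis was lower at its entry point. Phgdh, the enzyme that draws 3-phosphoglycerate from glycolysis into serine, stood at 276 and 275 RPKM in wild type and at 131 and 134 in heterozygous cells (-1.05 ± 0.02, limma adjusted p = 1.9e-07). The knockout libraries were lower still, at 78.3 and 81.7 RPKM. Psph, the last enzyme of the path, fell from 25.9 and 26.4 to 17.6 and 17.9 RPKM (-0.53 ± 0.03), and Psat1, between them, from 73.4 and 72.9 to 62.3 and 64.5. Over the 19 serine and one-carbon genes measured, 11 were lower and 1, the cytosolic Shmt1 (0.31), was higher. Of these 19 genes, 1 passed the filter only through the wild-type libraries. Of 20 cytosolic aminoacyl-tRNA synthetases, which load amino acids onto tRNA, 12 were lower and 2 higher, led by Nars (-0.40) and Yars (-0.39), and none reached 1.5-fold. Atf4, the stress factor known to induce both groups, was at 78.9 and 75.8 RPKM in wild type and at 81.3 and 82.3 in heterozygous cells, a rise of 0.08 on the log2 scale. Of 23 Atf4 and amino acid stress genes measured, 13 were lower and 5 higher, with a median of -0.15. After median scaling 15 were lower and 3 higher, against 26.9% and 23.5% of all autosomal genes. A part of Atf4 in these differences was not tested. The Atf4 motif TGATGNAA was in none of 15 windows of the serine and one-carbon genes, 9 of them of lower genes, and in 2.45% of all windows.

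Small leucine-rich proteoglycans, which coat collagen fibrils and set their width, were higher. Of 8 measured, 6 were called higher and none lower, 5 of them at least 1.5-fold, with a median log2 difference of 0.75 against 0.06 over all genes. The same 6 to 0 split was found after either other scaling. Fmod, fibromodulin, stood at 3.21 and 3.43 RPKM in wild type and at 9.56 and 9.76 in heterozygous cells (1.30 ± 0.04, limma adjusted p = 6.6e-07). Lum, lumican, rose from 2.31 and 2.32 to 6.89 and 6.27 RPKM (1.19 ± 0.05), and Ogn, osteoglycin, from 0.795 and 0.832 to 2.30 and 2.12 (0.82 ± 0.06). For Lum, Fmod and Ogn the knockout libraries were higher again, at 13.4 and 13.9, at 17.4 and 17.3, and at 4.79 and 4.37 RPKM. Aspn (0.11) and Podn (0.07) did not pass the test.

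Tendon, joint and mineral-related genes moved in the same direction. Of 9 tendon and joint genes, 7 were higher and 1 lower, with a median of 0.46. Prg4, the joint lubricant lubricin, went from 2.64 and 2.83 RPKM to 8.01 and 7.38 (1.22 ± 0.05), and Thbs4, a thrombospondin of tendon matrix, from 2.09 and 2.44 to 6.20 and 6.54 (1.18 ± 0.06). Scx, the transcription factor scleraxis that marks tendon progenitors, rose from 2.61 and 2.51 to 5.21 and 5.25 RPKM (0.81 ± 0.05). Neither genotype's libraries entered the other's range in these genes. The lower member was Fibin, at 5.31 and 5.23 RPKM against 2.55 and 2.77. All 6 mineralization regulators measured were higher, among them Enpp1, which makes the mineral inhibitor pyrophosphate, from 2.71 and 2.71 to 6.14 and 5.85 RPKM (0.92 ± 0.04), and Spp1, osteopontin, from 264 and 262 to 317 and 330. Sox9, the regulator of cartilage, rose from 3.30 and 3.53 to 6.15 and 6.01 RPKM (0.68 ± 0.05), while Acan, the cartilage proteoglycan aggrecan, stayed under the filter at 0.0550 and 0.0497 against 0.494 and 0.541.

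Collagens were divided. The main fibril chains, Col1a1 (1143 and 1129 RPKM in wild type, 1076 and 1151 in heterozygous cells) and Col1a2 (374 and 386 against 354 and 374), did not pass the limma test. Of 20 chains, 8 were higher and 6 lower, against 35.2% and 17.6% of all autosomal genes, with a median of 0.00. The basement membrane chains Col4a1 and Col4a2 fell, from 195 and 191 to 121 and 117 RPKM (-0.69 ± 0.02) and from 176 and 173 to 104 and 106 (-0.73 ± 0.02). These neighbouring genes, which share a promoter region and build 1 trimer, were lower in step. Col14a1, a chain that binds fibril surfaces, rose from 0.373 and 0.426 to 1.44 and 1.66 RPKM (0.86 ± 0.07), and Col10a1, of hypertrophic cartilage, from 0.595 and 0.687 to 2.17 and 2.41 (limma adjusted p = 1.5e-05).

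Other matrix families were mixed as well. Their counts stand beside 35.2% called higher and 17.6% called lower over all autosomal genes. Of 14 crosslinking enzymes, 5 were higher and 5 lower: besides Tgm2, Loxl2 fell from 151 and 150 to 76.5 and 77.3 RPKM (-0.96 ± 0.02), while Lox rose from 199 and 203 to 270 and 270 (0.42 ± 0.02) and Plod2, which hydroxylates collagen telopeptides, from 14.7 and 14.8 to 24.1 and 23.2 (0.65 ± 0.03). Matricellular proteins were lower in 10 of 17 and higher in 5, with a median of -0.06. That split depended on the scaling. After quantile normalization 7 were lower and 7 higher, with a median of 0.02, and after median scaling 11 were lower and 5 higher. The shares of all autosomal genes lower and higher were then 21.9% and 22.7%, and 26.9% and 23.5%. Among these proteins Ctgf, a growth factor cofactor of the CCN family, fell from 450 and 455 to 279 and 282 RPKM (-0.69 ± 0.01), in contrast to its relative Wisp2. Integrin subunits were lower in 5 of 10 and higher in 1. Itga5, the fibronectin receptor subunit, fell from 229 and 232 to 145 and 145 RPKM (-0.67 ± 0.02), and Itgb3 from 10.1 and 10.3 to 5.81 and 5.83. Of 22 metalloproteinases and inhibitors, 9 were higher and 4 lower, close to the shares of all autosomal genes. Mmp13, a collagenase, rose from 9.36 and 10.01 to 25.5 and 25.9 RPKM (1.32 ± 0.04), whereas Mmp9, a gelatinase, fell from 1.82 and 1.97 to 0.488 and 0.602 (-0.91 ± 0.06).

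**Figure D5:**
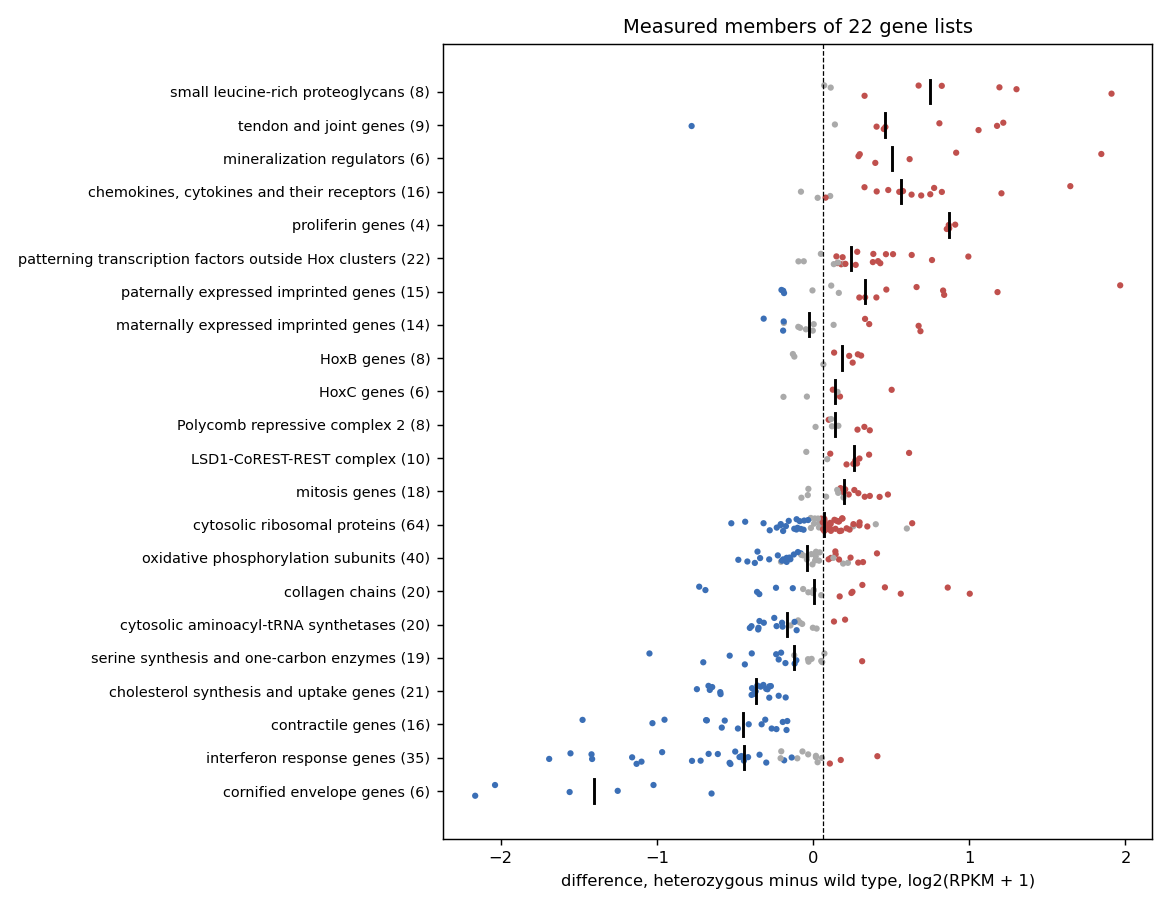
Difference in log2(RPKM + 1), heterozygous minus wild type (horizontal axis), of every measured member of 22 gene lists, with the number of members in brackets; red points were called higher, blue lower, grey neither, and the bar is the list's median. All contractile (16), cholesterol (21) and cornified envelope (6) genes lie to the left of the dashed line, the median of all autosomal genes (0.06); vertical scatter within a list carries no value.

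Chemokine and cytokine genes past the filter were higher as a group. Of 16 measured, 13 were called higher and none lower, against 35.2% of all autosomal genes called higher. Of these 16 genes, 1 passed the filter only through the heterozygous libraries. The 16 listed genes under the filter did not share that lean. Of the 14 of them with reads, 3 had both heterozygous libraries above both wild-type ones and 4 below. The shares of all autosomal genes under the filter were 29.6% and 14.6%. At least 1.5-fold higher were 7 of the genes past the filter, against 2.56% of all, and their median log2 difference was 0.56. After quantile normalization 13 were higher and 1 lower, against 22.7% and 21.9% of all autosomal genes. Il1rl1, the receptor of interleukin-33, stood at 36.3 and 37.0 RPKM in wild type and at 85.4 and 86.2 in heterozygous cells (1.21 ± 0.02, limma adjusted p = 8.9e-08). Ccl2, which attracts monocytes, rose from 24.2 and 23.0 to 44.5 and 40.8 RPKM (0.82 ± 0.05), and Cxcl1, a neutrophil attractant, from 2.33 and 2.45 to 4.43 and 5.18 (0.78 ± 0.07). Cebpb, a transcription factor of the acute phase that is not on this list, rose from 9.66 and 9.03 to 22.8 and 23.1 RPKM (1.21 ± 0.04). So the chemokine and cytokine genes past the filter and the interferon-induced genes differed in opposite directions between the same libraries. Among 9 complement genes, 5 were higher and 3 lower. Cd59a, which blocks the membrane attack complex, rose from 6.28 and 6.28 to 17.8 and 18.3 RPKM (1.39 ± 0.04), and Serping1, the C1 inhibitor, fell from 3.92 and 4.62 to 1.99 and 1.58 (-0.92 ± 0.09).

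Markers of blood cells were low in both genotypes. The 17 macrophage and leukocyte markers summed to 11.3 and 10.1 RPKM in wild type and to 8.85 and 8.06 in heterozygous cells, and 4 of them passed the filter. Ptprc, the leukocyte antigen CD45, stood at 0.0237 and 0 RPKM in wild type and at 0.00528 and 0.0169 in heterozygous cells. Lyz2, myeloid lysozyme, fell from 3.20 and 3.06 to 1.33 and 1.13 RPKM (-0.89 ± 0.05), whereas Cd68, a lysosomal marker, rose from 0.818 and 1.04 to 1.61 and 1.42 (0.38 ± 0.07). Of the 13 macrophage markers under the filter, 8 had both heterozygous libraries below both wild-type libraries, against 14.6% of all autosomal genes under the filter. What part such cells had in the chemokine and interferon differences was not tested.

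The remaining marker lists were near the floor or mixed. Fibroblast markers were strong in every library, with Vim (vimentin) at 2665 and 2690 RPKM in wild type and at 2346 and 2345 in heterozygous cells. Of 11 measured, 6 were higher and 3 lower. Thy1 fell from 193 and 188 to 124 and 124 RPKM (-0.61 ± 0.02) while Dpt, dermatopontin, rose from 2.35 and 2.65 to 5.90 and 6.20 (1.01 ± 0.05). Endothelial markers summed to between 2.26 and 2.81 RPKM in the 4 libraries. Adipoq, the fat cell hormone, was at 0 in all 4. Of 6 Schwann cell and neural crest markers past the filter, 4 were higher and 2 lower, among them Sox10, at 3.20 and 3.67 RPKM against 5.07 and 4.92 (0.44 ± 0.06).

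The insulin-like growth factor axis changed in both directions. Besides Igfbp3, Igfbp2 rose from 1.58 and 1.92 to 5.06 and 5.70 RPKM (1.21 ± 0.07) and Igfbp5 from 14.7 and 14.6 to 29.0 and 29.2 (0.95 ± 0.03). Igfbp6, which prefers the second growth factor of the family, fell from 29.6 and 29.5 to 17.8 and 17.0 RPKM (-0.73 ± 0.04). Pappa, a protease that cleaves the carriers, fell from 6.43 and 6.70 to 4.35 and 4.39 (-0.49 ± 0.04). The carriers thus did not move as 1 set. The ligand genes stayed under the filter: Igf2 was at 0.852 and 0.830 RPKM in wild type and at 1.04 and 0.981 in heterozygous cells, and Igf1 at 0.0513 and 0.131 against 0.396 and 0.423. The receptor gene Igf1r rose by 0.22 on the log2 scale.

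Genes of the bone morphogenetic protein and transforming growth factor pathway were higher in 14 of 21 and lower in 5, against 35.2% and 17.6% of all autosomal genes. The ligand gene Tgfb2, lower as given above, is not on this list and is not in these counts. Bmp4, a ligand, was barely detected in wild type at 0.268 and 0.231 RPKM and stood at 1.74 and 1.68 in heterozygous cells (1.12 ± 0.06, limma adjusted p = 1.2e-05). Id2, a target of that pathway that blocks helix-loop-helix factors, rose from 2.501 and 2.84 to 7.47 and 7.29 RPKM (1.19 ± 0.06), and the inhibitory Smad6 from 3.15 and 2.69 to 4.83 and 4.95 (0.59 ± 0.06). Bmp4 passed the filter only through the heterozygous libraries. Of the transforming growth factor genes, the ligand gene Tgfb3 fell from 119 and 119 to 79.1 and 80.1 RPKM (-0.58 ± 0.02), while the coreceptor gene Tgfbr3, which is not on the list, rose from 4.50 and 4.52 to 12.1 and 12.7 (1.28 ± 0.04). In the Wnt pathway, 8 of 15 genes were higher and 3 lower. The receptor gene Fzd1 rose from 6.15 and 5.91 to 11.3 and 11.7 RPKM (0.83 ± 0.04), and the ligand gene Wnt2b fell from 2.40 and 2.54 to 1.01 and 0.960 (-0.81 ± 0.06).

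Hox genes of the tail were expressed and changed little. Hoxc13, Hoxc12, Hoxc11 and Hoxc10 of the cluster that holds Hotair were all measured. Hoxc11 stood at 3.45 and 2.92 RPKM in wild type and at 3.74 and 3.57 in heterozygous cells, and Hoxc12 at 14.8 and 16.1 against 12.4 and 14.6. Neither neighbour of Hotair passed the limma test (adjusted p = 0.087 and 0.075). Over all autosomal genes, 35.2% were called higher and 17.6% lower, and 23.5% and 26.9% after median scaling. Of 6 HoxC genes measured, 3 were called higher and none lower, but 1 was higher and 1 lower after median scaling. Among the 3, Hoxc6 rose from 0.356 and 0.578 to 1.12 and 1.03 RPKM (0.50 ± 0.08), and passed the filter only through the heterozygous libraries. The calls of Hoxc9 (0.17) and Hoxc13 (0.13) were lost after either other scaling, and also without heterozygous library 1 or 2, without wild-type library 1 (Hoxc9) and without wild-type library 2 (Hoxc13). Of 8 HoxB genes, 5 were higher and none lower, but 4 were higher and 2 lower after median scaling. Hoxb13 went from 19.5 and 19.7 to 23.5 and 23.6 RPKM (0.25 ± 0.04) and Hoxb9 from 27.7 and 25.9 to 33.4 and 33.5 (0.31 ± 0.04). All 3 HoxA genes measured were called higher, with a median of 0.32, and 1 passed the filter only through the heterozygous libraries. After median scaling 2 were higher, and after quantile normalization 1. Of the 8 HoxA genes under the filter, 6 had both heterozygous libraries above both wild-type ones and none below, against 29.6% and 14.6% of all such genes.

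The HoxD cluster, which Hotair has been proposed to silence from another chromosome, was nearly silent. Of 9 HoxD genes listed, 1 passed the filter, and it passed only through the heterozygous libraries. That gene, Hoxd8, stood at 0.376 and 0.374 RPKM in wild type and at 1.08 and 1.03 in heterozygous cells (0.58 ± 0.07, limma adjusted p = 0.00051). The knockout libraries lay between, at 0.669 and 0.481. Of the 6 HoxD genes under the filter that had reads, 5 had both heterozygous libraries above both wild-type ones, against 29.6% of all autosomal genes under the filter. Hoxd13 was among them, at 0.0272 and 0.0289 RPKM in wild type against 0.0965 and 0.167. None of the measured HoxA, HoxB, HoxC or HoxD genes was 1.5-fold apart on the RPKM + 1 scale, which compresses low genes such as Hoxd8. Around the HoxC cluster on chromosome 15, 10 of 25 measured genes were called higher and 6 lower, not far from the 35.2% and 17.6% of all autosomal genes. At least 1.5-fold lower without overlap were 3 of the 25, against 1.75% of all autosomal genes. None was that much higher, against 2.56%. After median scaling 6 were higher and 8 lower, against 23.5% and 26.9%.

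Patterning transcription factors outside the Hox clusters were called higher in 16 of 22 and lower in none, against 35.2% and 17.6% of all autosomal genes. Of these 22 genes, 2 passed the filter only through the heterozygous libraries. After median scaling 11 were higher and 1 lower, and after quantile normalization 10 and 1, against 23.5% and 22.7% of all genes higher. Barx1, a homeobox gene of facial and stomach mesenchyme, rose from 0.392 and 0.209 to 1.78 and 1.40 RPKM (0.99 ± 0.10), above the knockout libraries at 0.241 and 0.220, and passed the filter only through the heterozygous libraries. Prrx2, a homeobox gene of limb and skin mesenchyme, rose from 39.1 and 39.6 to 68.3 and 66.5 RPKM (0.76 ± 0.03). Foxf2 rose from 1.46 and 1.07 to 2.54 and 2.45 (0.63 ± 0.08). The groups did not overlap in these genes.

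Imprinted genes are expressed from the copy of 1 parent. Of 15 measured genes expressed from the paternal copy, 9 were higher and 3 lower, 5 of them at least 1.5-fold higher, with a median of 0.33. Mest rose from 2.72 and 2.12 to 6.68 and 6.76 RPKM (1.18 ± 0.08), and Peg10, a gene of retroviral origin, from 5.46 and 5.59 to 10.7 and 10.7 (0.84 ± 0.04). Dlk1, a membrane protein related to Notch ligands, rose from 1.46 and 1.65 to 3.52 and 3.57 RPKM (0.83 ± 0.05), with 18.7 and 18.8 in the knockout libraries. Plagl1, a zinc finger factor, rose from 0.423 and 0.543 to 1.27 and 1.43 (0.66 ± 0.07) and passed the filter only through the heterozygous libraries. Dlk1 and Dio3 lie in 1 imprinted region of chromosome 12, where the noncoding RNA genes differed among themselves. Dio3os, antisense to Dio3, rose from 1.30 and 1.07 to 4.07 and 3.26 RPKM (1.09 ± 0.09). Meg3 was at 3.61 and 3.70 RPKM against 3.63 and 3.68, and Rian fell from 47.8 and 50.2 to 39.1 and 39.3 (-0.32 ± 0.03).

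Genes expressed from the maternal copy showed no common direction. Of 14 measured, 4 were higher and 3 lower, with a median of -0.02. After median scaling 4 were higher and 7 lower, against 23.5% and 26.9% of all autosomal genes. After quantile normalization 5 were higher and 4 lower, against 22.7% and 21.9%. H19, a noncoding RNA, rose from 5.92 and 5.86 to 9.82 and 10.4 RPKM (0.69 ± 0.04), with 30.2 and 31.0 in the knockout libraries. Grb10, an adaptor that restrains growth factor receptors, rose from 56.4 and 58.2 to 72.2 and 72.6 (0.33 ± 0.02). Cdkn1c, a cell cycle inhibitor, did not pass the test at 1.89 and 1.47 RPKM against 1.66 and 1.36.

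Genes of the chromatin complexes that Hotair has been described to bind differed by small amounts. In Polycomb repressive complex 2, 4 of 8 genes were higher and none lower, against 35.2% and 17.6% of all autosomal genes. After quantile normalization 2 of the 8 were higher, close to the 22.7% of all autosomal genes. Suz12, a core subunit, rose from 1.64 and 1.65 to 2.35 and 2.30 RPKM (0.33 ± 0.05). Ezh2, the methyltransferase, rose from 2.22 and 2.42 to 3.25 and 2.86 (0.28 ± 0.06), a call lost after quantile normalization. Eed (0.12) did not pass the test. In the LSD1-CoREST-REST list, 8 of 10 were higher and none lower, and 6 were higher after quantile normalization. Rcor2, a CoREST protein, rose from 1.95 and 1.95 to 3.75 and 3.30 RPKM (0.61 ± 0.06) and was the only member at least 1.5-fold apart. Kdm1a, which encodes LSD1, was at 17.2 and 16.3 RPKM in wild type and at 17.8 and 18.0 in heterozygous cells. Polycomb repressive complex 1 had 11 of 18 genes higher and 1 lower, but 3 higher and 1 lower after quantile normalization. Its share called higher was then under the 22.7% of all autosomal genes.

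Proliferation genes were higher in a share that depended on the scaling. Of 18 mitosis genes measured, 10 were called higher and none lower, with a median log2 difference of 0.20. Of these 18 genes, 2 passed the filter only through the heterozygous libraries. After quantile normalization 4 were higher and 1 lower, a share close to the 22.7% of all genes. Ccna2, cyclin A, rose from 1.97 and 1.92 to 3.20 and 3.01 RPKM (0.48 ± 0.05). Of 26 DNA replication genes, 13 were higher and 1 lower, and 8 and 1 after quantile normalization, among them Pcna, the sliding clamp, from 27.3 and 24.8 to 35.9 and 35.7 RPKM (0.45 ± 0.04). Of 17 cell cycle inhibitors and p53 targets measured, 9 were called higher and 5 lower, with a median of 0.18. The inhibitors of the Ink4 locus fell: Cdkn2a from 83.7 and 83.7 to 56.3 and 59.1 RPKM (-0.53 ± 0.03) and Cdkn2b from 46.8 and 46.0 to 35.8 and 37.0 (-0.34 ± 0.03). Cdkn1a, which encodes p21, fell by 0.14 on the log2 scale, from 315 and 316 RPKM. By contrast Cdkn2c rose from 2.07 and 1.52 to 3.60 and 4.28 RPKM (0.82 ± 0.10).

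Housekeeping groups differed by small amounts with no single direction. Of 64 ribosomal protein genes, 35 were higher and 19 lower. After median scaling 16 were higher and 25 lower, against 23.5% and 26.9% of all autosomal genes. Of 40 oxidative phosphorylation subunits, 9 were higher and 16 lower, and none was 1.5-fold apart. Of 21 glycolysis and hypoxia genes, 12 were higher and 5 lower, led by Egln3, an oxygen sensor, from 1.91 and 2.63 to 5.05 and 4.90 RPKM (0.88 ± 0.09), and by Car9, a carbonic anhydrase, from 0.497 and 0.501 to 1.502 and 1.53 (0.75 ± 0.06). In the antioxidant list, 11 of 17 were higher and 3 lower, led by Aldh3a1, an aldehyde dehydrogenase, from 0.799 and 0.605 to 3.12 and 3.30 RPKM (1.31 ± 0.07). The knockout libraries held 0.306 and 0.333 RPKM of Aldh3a1, below wild type. Hspb1, a small heat shock protein that stabilises actin, fell from 162 and 165 to 88.6 and 91.8 RPKM (-0.85 ± 0.02).

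The 4 proliferin rows, placental hormones of the prolactin family also made by growing fibroblasts, were all higher by between 0.86 and 0.91 on the log2 scale. Prl2c3 stood at 23.5 and 22.4 RPKM in wild type, at 41.2 and 44.3 in heterozygous cells and at 8.67 and 8.24 in the knockout libraries. These genes are near copies that may share reads, so the 4 rows may not be separate measurements.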

How the data were processed

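Polyadenylated RNA was sequenced from 6 libraries, 2 per genotype, by a dUTP method per the labels' protocols. The submitters' processing notes name TopHat and mm9. In the deposited table each gene symbol has a single value for a library, and the header names no unit. The values were read as RPKM computed by the authors, since low values of short genes (under 3000 bases) fell on steps of the worth of 1 read in 28.6% to 32.8% of cases (within 2% of a step). The sources used here do not give the annotation, filters or use of strand, so antisense and overlapping genes are reported as counted. Depth recovered from those steps was 29622300 and 27910100 reads in wild type, 33276000 and 31181000 in heterozygous and 48103300 and 46056000 in knockout libraries, as estimates.

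Chromosomes were taken by symbol (21496 rows) or synonym (1675) from a RefSeq GRCm38.p6 table, and 961 rows had none. Values were analysed as log2(RPKM + 1), which understates changes of low genes. limma 3.58.1 in R 4.3.3 fitted 3 genotype means over the 6 libraries, with an intensity trend, to 10524 genes past the filter on any chromosome. Tests were two-sided with Benjamini-Hochberg adjustment over all 10524. The fit was tested on simulated data first. Python 3.11.15 with pandas 2.3.3 and numpy 2.4.6 made the counts.

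Named genes were Hotair, sex-linked genes, the 15 called autosomal genes without overlap that rose most and the 15 that fell most (microRNA and small nucleolar RNA rows left out, 3 of them at least 2-fold apart), and from each gene list up to 4 called members with the largest difference plus members that define it. Ifnar1, Ifnar2, Srf, Tgfbr3 and Dio3os are named outside that rule, after their values were seen. The genes and lists were chosen with earlier results of these data known. Lists are described by counts and medians, without a test of the list. Where no other scaling is named, their calls stand beside 35.2% higher and 17.6% lower over all autosomal genes. Errors are the SE of the fit. Some genes that the rule would name are not reported here.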

Additional observations from a re-analysis of the deposited data

Results flagged for a closer look

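Xist, which lies outside the autosomal comparison, averaged 4.56 RPKM in the heterozygous libraries and 0.0446 in the wild-type controls. It was picked out because it is a signal in data that the comparison does not use, above the level in the control samples. With it, Tsix, its antisense partner, stood at 0.0235 and 0.0333 RPKM in wild type and at 1.32 and 1.03 in heterozygous cells, and since the use of strand in counting is not given, reads of the pair cannot be told apart. Eif2s3x, an X-linked gene with a Y-linked copy, was at 28.6 and 29.2 RPKM in wild type, at 54.0 and 53.6 in heterozygous cells and at 32.5 and 32.4 in the knockout libraries.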

How the results depend on the processing

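Of 13 alternatives, the pseudocount and the filter moved the counts most. Genes at least 2-fold apart without overlap numbered 115, 225 with a pseudocount of 0.1 and 24 with 5, and genes at least 1.5-fold apart 434, 781 with 0.1, 168 with 5 and 279 with a filter at 5 RPKM, where limma made 3502 calls against 5318. The median log2 difference (0.0647) was 0.0774 with a pseudocount of 0.1, 0.0389 with 5, 0.0255 without a filter, 0.0259 with the filter at 5 RPKM, 0.00175 after quantile normalization and -0.000939 after median scaling, which centres it by construction. Leaving out 1 library in turn gave 4422 to 4550 limma calls, 118 to 125 and 437 to 464 genes at the larger fold sizes, and medians of 0.0597 to 0.0707, each with a lone library assumed to vary like the others. Single genes were followed through the alternatives for 228 called genes, which do not include every gene named here. Tagln, Plagl1 and Pappa, for example, were not followed. Of the 228, 21 lost the call under at least 1 alternative, 19 of these under quantile normalization, and none changed sign. Vim had a difference of 0 after quantile normalization. Same-numbered wild-type and heterozygous libraries did not deviate together (correlation across genes -0.097), so the numbers give no pairing, and a fit with the replicate block made 5179 calls. Fits of the 4 libraries alone and without the intensity trend made 4915 and 5186. Depth limits low genes: 3 reads on a kilobase were worth 0.0902 to 0.107 RPKM in these libraries, and Hotair lay between 0.172 and 0.247.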

Other observations

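Several further families, chosen after their values were seen, differed together in heterozygous cells. All 8 Serpina3 rows, a cluster of protease inhibitor genes on chromosome 12 linked to the acute phase, were called higher, by 0.85 to 1.18 on the log2 scale. Serpina3n, the best studied, stood at 10.7 and 9.73 RPKM in wild type and at 23.0 and 25.8 in heterozygous cells, and Serpina3h at 52.3 and 52.9 against 109 and 111. Of 19 rows for class I histocompatibility genes, 18 were called lower and none higher, with a median of -0.61. H2-D1 fell from 53.5 and 54.8 RPKM to 35.4 and 34.9. Members of both families resemble each other and may share reads, so the rows may not be separate measurements.

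Genes around the aryl hydrocarbon receptor, a sensor of planar aromatic compounds, were higher in 6 of 7 rows. Ahr, the receptor gene, rose from 1.47 and 1.56 RPKM to 2.83 and 2.90, its repressor Ahrr from 1.29 and 1.34 to 3.33 and 3.71, and the target Cyp1b1, a cytochrome that oxidises steroids and aromatic compounds, from 1.61 and 1.75 to 5.40 and 5.24. All 4 fibroblast growth factor ligands past the filter were higher, among them Fgf7, the keratinocyte growth factor, from 5.08 and 5.08 to 13.6 and 12.8 RPKM. Rows for histone H4 were lower in 11 of 11, with a median of -1.03. Their messages mostly lack poly(A) tails and the rows may share reads. Hist1h4n, for example, stood at 38.9 and 37.8 RPKM in wild type and at 17.2 and 17.0 in heterozygous cells. Of 50 rows for other clustered histones, 32 were lower and 2 higher.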
